A study of Mus musculus with 6 samples.

Results

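The genes described here encode the enzymes that build and desaturate fatty acids: Acly, Acss2, Acaca, Fasn, Scd1, Scd2, Elovl5, Elovl6, Fads1 and Fads2. They were chosen by name, with earlier results of these data known, and all 10 were found among the 54433 genes of the deposited table. RNA sequencing of poly(A) RNA gave their transcript levels in MC3T3-E1 cells, an osteoblast-like line of the mouse. The fluoride-resistant group (FR, 3 libraries) held cells resistant to 30 ppm fluoride. They were derived from the wild-type line, kept in fluoride (a 10 ppm gradient per the labels) until proliferation was normal again, and the sample labels describe them as exposed to a gradient of 30 ppm. The control group (WT, 3 libraries) held wild-type cells. The title of the series names osteoblasts of fluoride-tolerant mice instead, and the sample labels are followed here. Both groups were grown in Dulbecco's modified Eagle medium with fetal bovine serum. The labels mention clones without saying how many entered FR. They do not say whether fluoride was in the medium at harvest, so resistance and exposure cannot be told apart, nor whether a group's libraries stem from different cultures, so the p-values reflect the spread among these 6 libraries, which may be technical.

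Cells make fatty acids in the cytosol from acetyl-CoA, which ATP citrate lyase (Acly) cuts from citrate and a synthetase (Acss2) makes from acetate. Acetyl-CoA carboxylase (Acaca) turns it into malonyl-CoA, and fatty acid synthase (Fasn) joins these units into palmitate. Elongases (Elovl5, Elovl6) lengthen the chain and desaturases (Scd1, Scd2, Fads1, Fads2) place double bonds in it, which sets the fluidity of membranes and provides precursors of lipid mediators. In mammals many of these genes are targets of the sterol regulatory element-binding proteins, SREBPs, of which the Srebf1 product acts mainly on fatty acid synthesis and the Srebf2 product mainly on cholesterol synthesis.

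The table held between 19246119 and 25185697 expected counts in FR libraries and between 25700497 and 27140662 in WT libraries. Levels are given as CPM, which are counts scaled to library size with TMM factors. Differences are log2 fold changes of FR over WT with their standard error (SE), from edgeR's quasi-likelihood test with Benjamini-Hochberg adjustment over 14889 tested genes. The test gives no SE itself, so the SE was derived as the absolute log2 fold change divided by the square root of the F statistic. Of the osteoblast markers, Runx2, Col1a1, Col1a2 and Sparc were well measured, while Sp7, Alpl, Bglap and Ibsp had between 0 and 8 counts in any library, where 3 counts corresponded to between 0.111 and 0.156 CPM. The summed level of the 8 osteoblast markers was 4467 to 4491 CPM in FR and 15869 to 16231 CPM in WT. Nearly all of it came from Col1a1, Col1a2 and Sparc. Their mean CPM in FR and WT were 635 and 5055 for Col1a1, 3104 and 9282 for Col1a2, and 685 and 1655 for Sparc. Runx2 differed less, with 57.2 CPM in FR and 69.8 CPM in WT (1.22-fold lower in FR). The part of these markers in the results below was not tested.

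All 10 genes passed the test and each was lower in FR, where 35.5% of all tested genes were called lower, 34.6% higher and 70.1% called in either direction. Their median log2 fold change was −0.58, beside 0.0029 over all tested genes. The falls split by size. Elovl6 (3.03-fold), Scd1 (2.89-fold) and Acss2 (2.76-fold) fell at least 2-fold, as did 11.4% of all tested genes, and the other 7 fell between 1.22-fold (Elovl5) and 1.61-fold (Scd2). The CPM of the groups did not overlap for any of the 10, as for 72.4% of all tested genes. In bulk RNA, fewer cells that express a gene and less RNA per cell cannot be told apart.

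**Figure D1:**
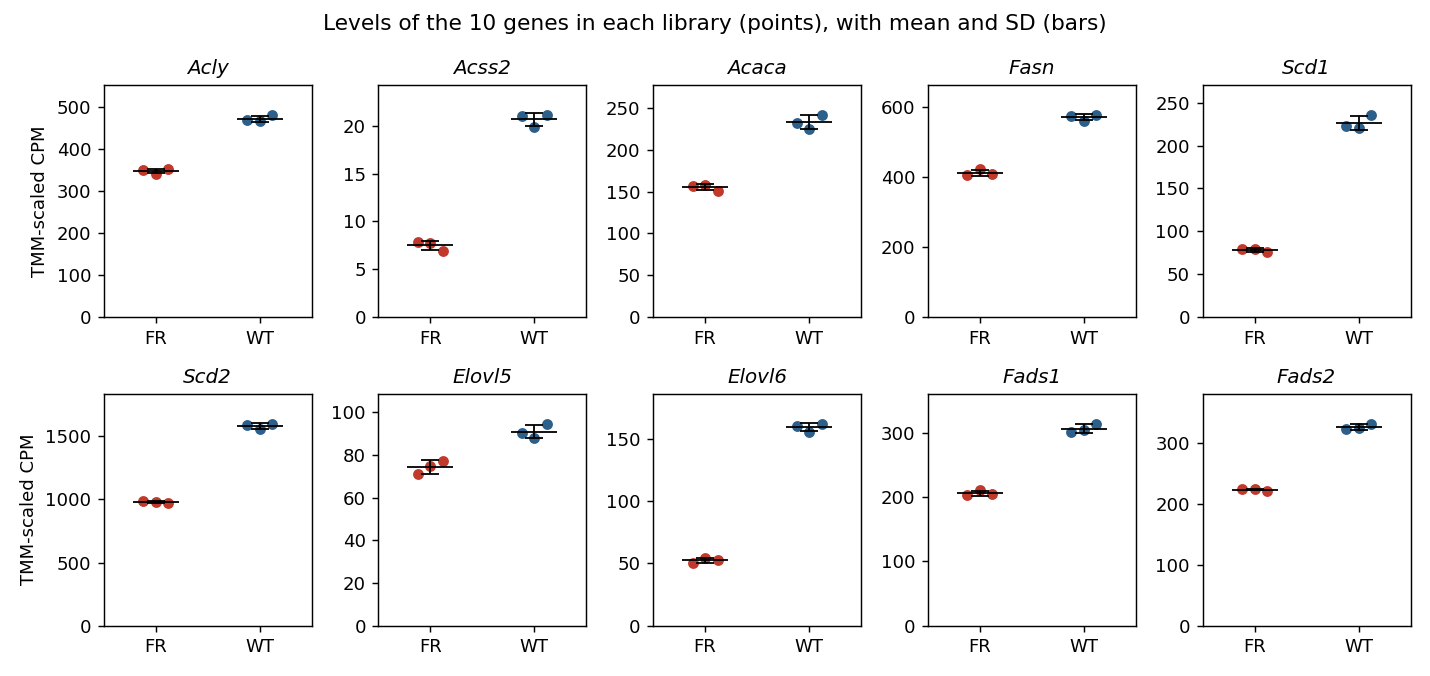
Level of each gene in TMM-scaled CPM, on a linear axis from 0 with its own scale per panel, for the 3 FR and 3 WT libraries. Points are libraries and bars are the mean and SD. In every panel the 3 FR points lie below the 3 WT points, with the widest relative gaps for Acss2, Scd1 and Elovl6.

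Promoter sequences are shown for Acss2 and Elovl6, which were among the genes with the deepest falls, and for Fasn, the central enzyme, since the 10 genes moved in the same direction. RefSeq windows of 300 bases (250 before the start site and 50 after it, GRCm38.p6) were found for 7 of the 10 genes. Those of Scd1, Scd2 and Fads1 were not used here. Capitals mark matches, on either strand, to the core of the sterol regulatory element (TCACNCCAC), the NF-Y box (CCAAT), the GC box bound by Sp1 (GGGCGG) and the E-box (CACGTG). The sequences run in the direction of the gene.
Acss2 (chr2:155517793-155518092, plus strand): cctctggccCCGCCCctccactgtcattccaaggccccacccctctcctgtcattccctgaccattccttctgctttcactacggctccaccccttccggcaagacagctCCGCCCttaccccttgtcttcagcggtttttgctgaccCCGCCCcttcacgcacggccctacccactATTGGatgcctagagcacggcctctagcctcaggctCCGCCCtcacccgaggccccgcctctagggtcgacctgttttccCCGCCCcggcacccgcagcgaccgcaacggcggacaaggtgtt
Fasn (chr11:120824498-120824797, minus strand): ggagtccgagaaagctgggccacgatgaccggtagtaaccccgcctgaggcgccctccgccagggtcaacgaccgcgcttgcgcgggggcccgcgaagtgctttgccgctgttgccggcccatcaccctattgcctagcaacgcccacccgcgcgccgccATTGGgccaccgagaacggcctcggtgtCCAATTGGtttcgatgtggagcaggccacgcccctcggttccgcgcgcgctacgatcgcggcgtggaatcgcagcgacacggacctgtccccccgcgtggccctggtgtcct
Elovl6 (chr3:129532136-129532435, plus strand): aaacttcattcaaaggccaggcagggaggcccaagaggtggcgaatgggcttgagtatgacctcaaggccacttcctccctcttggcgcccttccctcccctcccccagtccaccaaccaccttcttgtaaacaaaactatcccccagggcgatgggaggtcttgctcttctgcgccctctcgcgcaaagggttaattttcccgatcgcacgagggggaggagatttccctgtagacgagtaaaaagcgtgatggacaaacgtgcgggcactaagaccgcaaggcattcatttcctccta
The Acss2 window held 1 NF-Y box and 5 GC boxes. The Fasn window held 3 NF-Y boxes, beginning at −90, −62 and −59 from the start site, of which the last 2 overlap. The Elovl6 window held none of these letters. The NF-Y box was in 4 of the 7 windows (Acly, Acss2, Fasn and Elovl5) and in 37.4% of all 32851 windows, and the GC box was in 3 (Acly, Acss2 and Fads2) against 35.7% of all. The E-box was in 1 (Elovl5) against 7.15% of all, and the sterol element in 0 of 7 against 1.24%. Of 17 windows for 14 cholesterol synthesis genes, the NF-Y box was in 14, the GC box in 14, the E-box in 3 and the sterol element in 1. A match describes letters only, and sites beyond these windows were not searched. The exact letters of the sterol element were rare in all windows, so 0 of 7 does not show that these genes lack such an element.

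Both sources of cytosolic acetyl-CoA were lower in FR, by different amounts. Acly (ENSMUSG00000020917), ATP citrate lyase, had 349, 341 and 352 CPM in the FR libraries, against 469, 466 and 480.1 CPM in the WT libraries. The highest FR library lay well under the lowest WT library, and the log2 fold change was −0.44 ± 0.03 (SE, edgeR adjusted p = 2.72e-15). Acss2 (ENSMUSG00000027605), the synthetase that activates acetate, had 7.84, 7.71 and 6.94 CPM in FR libraries, against 21.1, 19.9 and 21.1 CPM in WT libraries. These were the lowest levels of the 10 genes, resting on 147 to 193 counts in FR libraries and 513 to 575 in WT libraries. The log2 fold change was −1.46 ± 0.09 (SE, edgeR adjusted p = 4.43e-15), with the widest SE of the 10.

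Acaca and Fasn, which carry out the committed step and the chain synthesis, fell by similar factors. Acaca (ENSMUSG00000020532), acetyl-CoA carboxylase, had 157, 158 and 151 CPM in FR libraries, against 232, 225 and 241 CPM in WT libraries. Fasn (ENSMUSG00000025153), fatty acid synthase, had 406, 423 and 409.6 CPM in FR libraries, against 575, 562 and 577 CPM in WT libraries. Neither gene overlapped between the groups. Acaca fell 1.5-fold (log2 fold change −0.58 ± 0.03 SE, edgeR adjusted p = 5.14e-16) and Fasn 1.38-fold (−0.47 ± 0.03 SE, edgeR adjusted p = 6.09e-16). For Acaca, 33.5% of the 31-base words of its transcripts also occur in other genes, mostly in the predicted gene Gm5182. Gm5182 had 69 to 92 counts in any library, and with them added to Acaca the log2 fold change was −0.57.

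The paired desaturase genes Scd1 and Scd2 differed in how far they fell. Both encode stearoyl-CoA desaturases, which convert saturated to monounsaturated chains such as oleate. Scd1 is known in the mouse as the main form of liver and fat, and Scd2 as that of brain and of many other tissues. Scd1 (ENSMUSG00000037071) had 79.7, 79.7 and 75.5 CPM in FR libraries, against 223, 221 and 235 CPM in WT libraries. The FR libraries lay close together and far under the WT libraries. Its log2 fold change was −1.53 ± 0.03 (SE, edgeR adjusted p = 3.52e-25). Scd2 (ENSMUSG00000025203) had 989.5, 978 and 972 CPM in FR libraries, against 1592, 1557 and 1598 CPM in WT libraries, and was the most abundant of the 10 genes in both groups, also per length. Its log2 fold change was −0.69 ± 0.02 (SE, edgeR adjusted p = 4.41e-21).

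Per length, Scd1 made up 8.34%, 8.42% and 8.06% of Scd1 plus Scd2 in FR libraries, against 13.6%, 13.8% and 14.3% in WT libraries. The share was lower in each FR library than in any WT library, with a difference of the means of −5.62 percentage points (exact two-sided permutation test p = 0.1, Benjamini-Hochberg adjusted over the 3 share comparisons made here 0.15, n = 3 each). A p of 0.1 is the smallest that 3 libraries against 3 can give, so none of these comparisons could pass 0.05. Scd1 and Scd2 stand in a row with Scd3 and Scd4 on chromosome 19, and 8.18% of the 31-base words of Scd1 and 6.81% of those of Scd2 occur in other genes, mainly of this group. Scd4 had 12 to 17 counts in FR libraries and 45 to 55 in WT libraries, and Scd3 had 6 or fewer in any library, so few reads were given to these copies.

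The elongases also split. Elovl6, which lengthens saturated and monounsaturated chains and makes stearate from palmitate, had 50.6, 54.5 and 52.5 CPM in FR libraries, against 161, 156 and 162 CPM in WT libraries (ENSMUSG00000041220). The log2 fold change was −1.60 ± 0.04 (SE, edgeR adjusted p = 5.28e-25), the deepest fall of the 10. Elovl5, which lengthens polyunsaturated chains, had 70.9, 74.8 and 77.1 CPM in FR libraries, against 90.2, 88.1 and 94.5 CPM in WT libraries (ENSMUSG00000032349). Here the highest FR and the lowest WT library were closest in proportion, and the log2 fold change was −0.29 ± 0.04 (SE, edgeR adjusted p = 1.26e-07). Per length, Elovl5 made up 56.8%, 56.3% and 58.0% of the 2 elongases in FR libraries, against 34.5%, 34.7% and 35.4% in WT libraries. The more abundant elongase transcript of the pair was therefore Elovl5 in FR and Elovl6 in WT. The mean shares differed by 22.2 percentage points (exact two-sided permutation test p = 0.1, adjusted 0.15, n = 3 each). Elovl1, an elongase gene outside the 10, lay above both per length, with 83.5 ± 1.77 CPM per kilobase in FR and 67.3 ± 1.33 in WT (SD, n = 3 each). It was higher in FR (log2 fold change 0.31 ± 0.03 SE, edgeR adjusted p = 3.06e-09).

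Fads1 and Fads2, which desaturate the precursors of arachidonic and related polyunsaturated acids and are neighbours on chromosome 19, moved by nearly equal factors. Fads1 (ENSMUSG00000010663) had 203, 211 and 205 CPM in FR libraries, against 301, 306 and 314 CPM in WT libraries. Fads2 (ENSMUSG00000024665), which acts first on the route, had 224, 223 and 221 CPM in FR libraries, against 322, 324 and 330.5 CPM in WT libraries. The groups were separate for both genes. Their log2 fold changes were −0.57 ± 0.03 for Fads1 (SE, edgeR adjusted p = 5.22e-17) and −0.55 ± 0.03 for Fads2 (SE, edgeR adjusted p = 4.58e-17). The share of Fads1 in Fads1 plus Fads2 per length was 45.2%, 46.2% and 45.7% in FR libraries and 46.0%, 46.2% and 46.4% in WT libraries. These shares overlapped, and their means differed by −0.47 percentage points (exact two-sided permutation test p = 0.3, adjusted 0.3, n = 3 each), which does not show that the share was equal. The difference was −0.22 percentage points without FR replicate 1 and −0.72 without FR replicate 2.

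**Figure D2:**
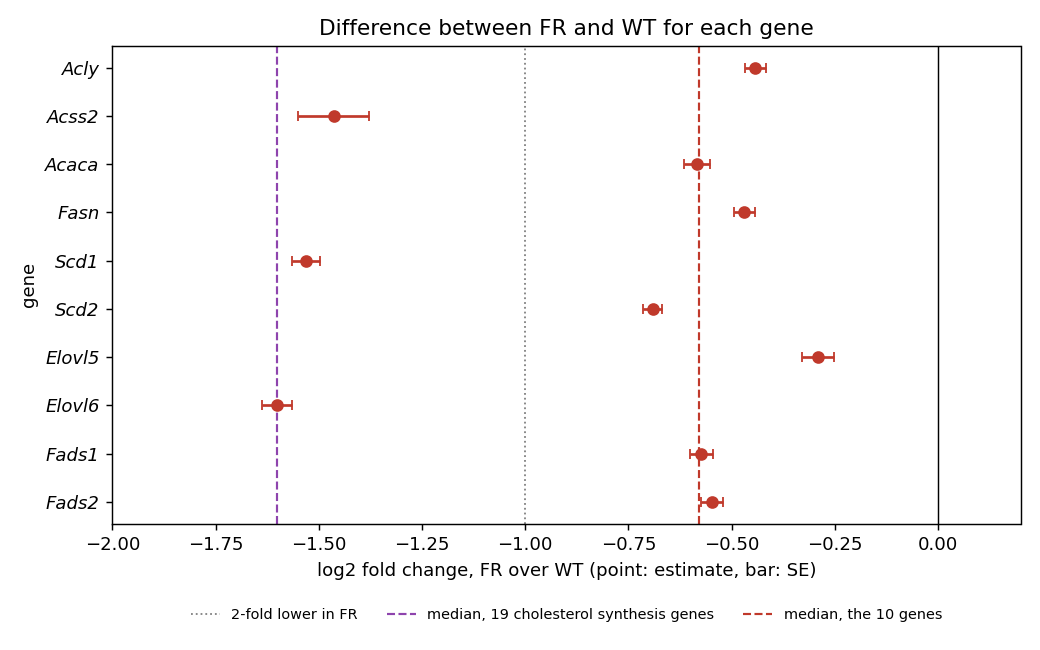
Log2 fold change of FR over WT for each of the 10 genes, with bars for the SE derived from the F statistic of the edgeR test. Acss2, Scd1 and Elovl6 lie to the left of the dotted line of a 2-fold fall, near the median of 19 cholesterol synthesis genes (−1.60), and the other 7 lie between −0.69 and −0.29, around the median of the 10 (−0.58).

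To compare levels between the genes, CPM were divided by gene length in kilobases. Scd2 led with 179.6 ± 1.62 CPM per kilobase in FR and 290.1 ± 4.03 in WT (SD, n = 3 each), above 97.4% of tested genes in FR and 98.3% in WT. Acly (78.5 ± 1.22 in FR and 107 ± 1.67 in WT), Fads2 (70.8 ± 0.466 in FR and 103 ± 1.39 in WT) and Fads1 (59.6 ± 1.14 in FR and 88.7 ± 1.91 in WT) followed in this order in both groups. Elovl6 ranked 7 of the 10 in FR and 5 in WT, and Scd1 ranked 9 in FR and 7 in WT. Acss2 was last in both, at 3.50 ± 0.227 in FR and 9.65 ± 0.318 in WT. Neighbours in the order did not overlap between libraries, except Acaca (16.3 ± 0.409 CPM per kilobase) and Scd1 (16.2 ± 0.500 CPM per kilobase) in FR.

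Summed over the 10 genes, the level per length was 512, 515 and 510.4 CPM per kilobase in FR libraries, against 819, 808 and 835 in WT libraries. The FR mean was 0.625 times the WT mean. Scd2 made up 35.1 ± 0.321% of the sum in FR and 35.4 ± 0.277% in WT (SD, n = 3 each), Elovl6 3.93 ± 0.137% in FR and 7.45 ± 0.0655% in WT, and Scd1 3.16 ± 0.0877% in FR and 5.71 ± 0.114% in WT. Acly, whose own level fell, made up more of the smaller sum, with 15.3 ± 0.301% in FR and 13.0 ± 0.0456% in WT.

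**Figure D3:**
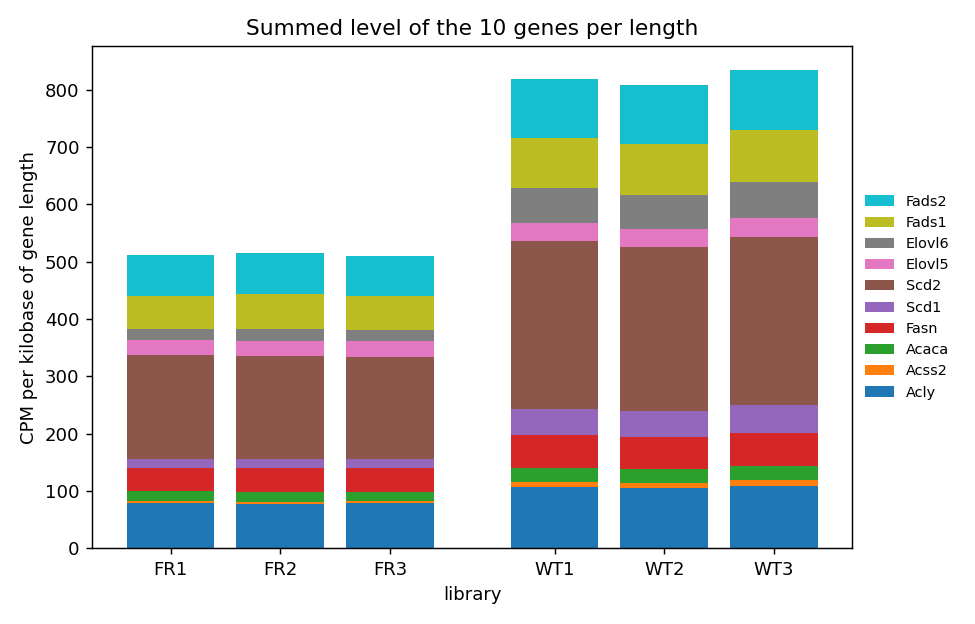
Level per length of the 10 genes, stacked, in CPM per kilobase of gene length for each library, FR on the left and WT on the right. The FR columns reach 510.4 to 515 and the WT columns 808 to 835, Scd2 is the tallest band in all 6, and the Elovl6 and Scd1 bands are a smaller part of the FR columns.

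Genes of the same families, which the 10 do not include, moved in both directions. Beside the counts of this and the following lists, 35.5% of all tested genes were called lower and 34.6% higher. Of 12 relatives, 6 could be tested, and 2 (Acacb and Elovl1) rose while 4 fell (median log2 fold change −1.0). That median leans on genes with few counts in FR libraries, with 2 to 9 for Elovl4, 12 to 17 for Scd4 and 15 to 33 for Elovl7. Elovl1 rose 1.24-fold, to 112 ± 2.38 CPM in FR, against 90.2 ± 1.79 CPM in WT (SD, n = 3 each). Acacb, the carboxylase form of the mitochondrial surface whose malonyl-CoA restrains fatty acid oxidation, had 13.5, 15.0 and 15.3 CPM in FR libraries, against 3.70, 4.0 and 4.06 CPM in WT libraries. It rose 3.74-fold (log2 fold change 1.90 ± 0.11 SE, edgeR adjusted p = 2.92e-15), opposite in sign to Acaca. Per length Acacb had 1.66 ± 0.112 CPM per kilobase in FR and 0.446 ± 0.0217 in WT, below Acaca in both groups (SD, n = 3 each). Elovl7 fell to 0.983 ± 0.293 CPM in FR, against 7.48 ± 0.978 CPM in WT, and Fads3, the third gene of the Fads group, to 60.6 ± 1.59 CPM in FR, against 90.4 ± 2.84 CPM in WT (SD, n = 3 each). Of the relatives that could not be tested, Acss1 had no count in any library, Acss3 had 0 in FR libraries and 4 to 9 in WT libraries, and Scd3, Elovl2, Elovl3 and Fads6 had 7 counts or fewer in any library.

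The supply of precursors and of NADPH was mixed, with 5 of 10 genes lower, 2 higher and 3 that did not pass (median −0.14, and −0.092 without FR replicate 3). Slc25a1, the carrier that exports citrate from mitochondria, had 53.0, 54.3 and 52.2 CPM in FR libraries, against 95.2, 92.0 and 100.1 CPM in WT libraries (log2 fold change −0.85 ± 0.04 SE, edgeR adjusted p = 2.43e-17). The pyruvate dehydrogenase subunits went opposite ways. Pdha1 fell to 140.0 ± 3.93 CPM in FR, against 304 ± 3.51 CPM in WT, and Pdhb rose to 186 ± 7.63 CPM in FR, against 123 ± 2.25 CPM in WT (SD, n = 3 each).

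Of 9 genes for the other steps of elongation and for electron transfer to desaturases, 6 fell, 1 rose and 2 did not pass (median −0.48). Hsd17b12, the ketoacyl-CoA reductase of the elongation cycle, fell to 97.1 ± 2.29 CPM in FR, against 146 ± 5.09 CPM in WT, and Cyb5r3, a cytochrome b5 reductase, to 298 ± 3.93 CPM in FR, against 388 ± 6.92 CPM in WT. The dehydratase family genes differed, with Hacd4 at 8.01 ± 1.32 CPM in FR and 47.1 ± 2.08 CPM in WT (log2 fold change −2.54 ± 0.08 SE, edgeR adjusted p = 9.67e-19), and Hacd3 at 71.2 ± 1.65 CPM in FR and 51.5 ± 2.81 CPM in WT (0.47 ± 0.04 SE, edgeR adjusted p = 9.32e-11).

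Of 8 acyl-CoA synthetase genes, which activate fatty acids for use, 5 fell and 3 rose (median −0.41). Acsl3, a form linked to lipid droplets, fell to 36.9 ± 0.621 CPM in FR, against 113 ± 1.29 CPM in WT, and Slc27a3 to 1.30 ± 0.210 CPM in FR, against 15.3 ± 1.06 CPM in WT. Slc27a1, a fatty acid transport protein, rose to 31.3 ± 0.624 CPM in FR, against 8.02 ± 0.914 CPM in WT (SD, n = 3 each).

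Among 14 tested genes of control, 8 fell, 4 rose and 2 did not pass (median −0.12), and the 2 SREBP genes had opposite signs. Srebf1 had 75.0, 71.2 and 73.1 CPM in FR libraries, against 62.7, 61.1 and 58.2 CPM in WT libraries, a rise of 0.27 ± 0.04 on the log2 scale (SE, edgeR adjusted p = 9.80e-07). Srebf2 had 265, 274 and 270.0 CPM in FR libraries, against 354, 356 and 357 CPM in WT libraries (log2 fold change −0.40 ± 0.03 SE, edgeR adjusted p = 4.62e-14). Transcript levels of these factors do not measure their cleavage, on which their activity depends. Insig1, which holds the SREBP complex in the endoplasmic reticulum and is itself an SREBP target, fell to 60.0 ± 3.70 CPM in FR, against 184 ± 4.75 CPM in WT (log2 fold change −1.62 ± 0.04 SE, edgeR adjusted p = 9.92e-24). Insig2 fell to 37.5 ± 1.77 CPM in FR, against 56.6 ± 1.30 CPM in WT, while Scap, the escort of the SREBPs, rose to 110.1 ± 3.6 CPM in FR, against 80.9 ± 0.851 CPM in WT (SD, n = 3 each). Mlxipl, which encodes the glucose-responsive factor ChREBP, Nr1h3 and Thrsp had 7 counts or fewer in any library and were not tested.

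Cholesterol synthesis, which shares acetyl-CoA and SREBP control with these genes, had a lower median. All 19 of its genes were lower, 18 of them at least 2-fold (median −1.60), where 3 of the 10 fatty acid genes were. Over all tested genes, 35.5% were called lower and 11.4% at least 2-fold lower. Fdps fell to 60.2 ± 3.04 CPM in FR, against 293 ± 6.85 CPM in WT, Hmgcs1 to 67.7 ± 1.66 CPM in FR, against 251.0 ± 2.58 CPM in WT, and Msmo1 to 36.8 ± 1.71 CPM in FR, against 147 ± 1.54 CPM in WT (SD, n = 3 each). The difference between the 2 lists was not tested.

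Of 7 genes for the separate fatty acid synthesis of mitochondria, 5 were higher and 2 lower (median 0.35), and their difference from the cytosolic genes was not tested. Ndufab1, its acyl carrier protein, rose to 127 ± 5.36 CPM in FR, against 91.4 ± 2.14 CPM in WT, and H2-Ke6, the table's name for Hsd17b8, rose to 20.01 ± 1.14 CPM in FR, against 12.3 ± 0.191 CPM in WT. Cbr4 fell to 6.19 ± 0.698 CPM in FR, against 8.86 ± 0.539 CPM in WT (SD, n = 3 each). In fatty acid oxidation 7 of 15 tested genes rose, 4 fell and 4 did not pass (median 0.11, and 0.067 without WT replicate 2). Acads, a dehydrogenase of short chains, rose to 48.7 ± 2.56 CPM in FR, against 29.8 ± 1.71 CPM in WT, while Acadm, that of medium chains, fell to 47.6 ± 3.41 CPM in FR, against 78.6 ± 3.22 CPM in WT, and Cpt1c to 10.1 ± 1.06 CPM in FR, against 27.5 ± 0.620 CPM in WT (SD, n = 3 each). Ppara had 1 count or none in any library.

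The genes that place fatty acids into lipids were also mixed. In glycerolipid assembly 6 of 13 genes fell, 2 rose and 5 did not pass (median −0.068, with −0.11 without FR replicate 2 and −0.11 without FR replicate 3). Gpam, which attaches the first acyl chain to glycerol phosphate, fell to 41.2 ± 2.95 CPM in FR, against 63.2 ± 0.244 CPM in WT, and Agpat2, which attaches the next, to 1.21 ± 0.200 CPM in FR, against 8.51 ± 0.374 CPM in WT. Lpin3, a phosphatidate phosphatase, rose to 15.9 ± 0.400 CPM in FR, against 5.29 ± 0.150 CPM in WT (SD, n = 3 each). In membrane lipid remodelling 3 of 8 tested genes rose, 2 fell and 3 did not pass (median 0.14). Lpcat3, which inserts polyunsaturated chains into phospholipids, fell to 31.5 ± 0.963 CPM in FR, against 52.9 ± 1.03 CPM in WT, and Lpcat2 to 0.773 ± 0.139 CPM in FR, against 5.6 ± 0.527 CPM in WT. Pla2g4a, which releases arachidonic acid from them, rose to 115 ± 5.95 CPM in FR, against 84.8 ± 1.11 CPM in WT (SD, n = 3 each). Mboat2 had 1 count or none in any library.

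**Figure D4:**
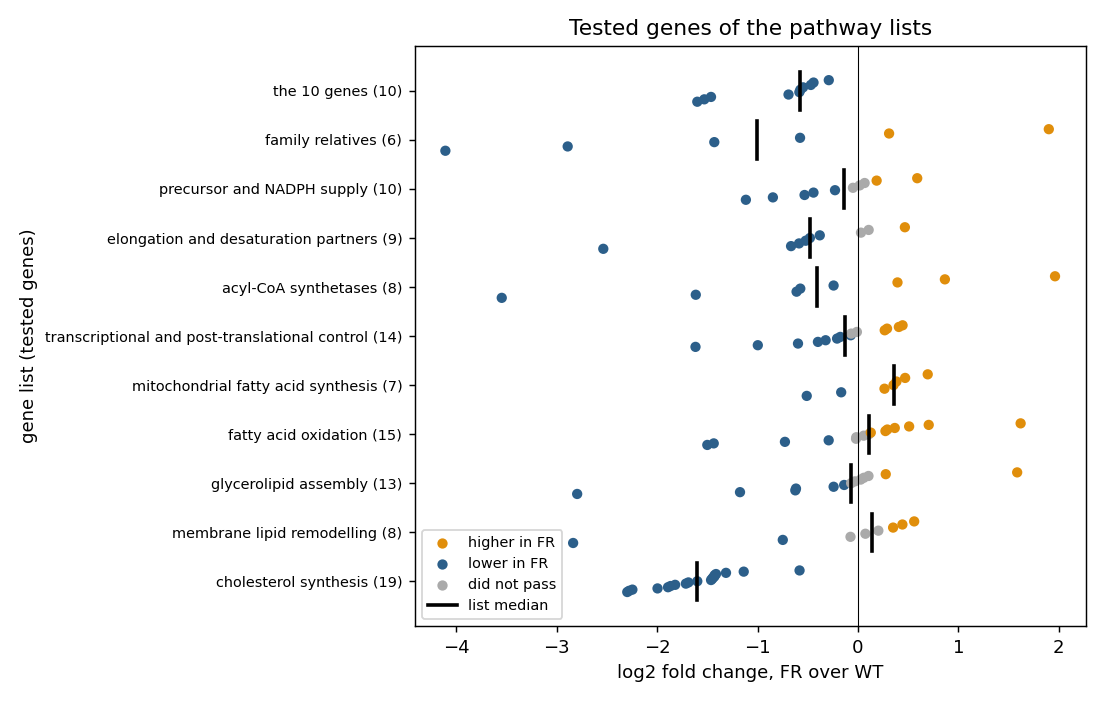
Log2 fold change of FR over WT for the tested genes of each list (points, coloured by call) with the list median (black bar) and the number tested in brackets. The 10 genes and the 19 cholesterol synthesis genes have points on the lower side only, with medians of −0.58 and −1.60, while every other list shown has points on both sides of 0.

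The pathway terms deposited with the table were looked up after the values were seen. The term fatty acid biosynthesis held 16 tested genes, 8 higher and 8 lower. Acaca and Fasn were its only members among the 10, and the other 14 belong to the mitochondrial route or activate fatty acids, apart from Acacb and Gm5182. Of these 14, 8 were higher and 6 lower, with a median log2 fold change of 0.31. The term biosynthesis of unsaturated fatty acids held 25 tested genes, of which 16 were lower, 5 higher and 4 did not pass. Without the 6 of them that are among the 10 genes, 10 of 19 were lower and 5 higher, with a median of −0.12.

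Of 8 adipocyte markers, Lep and Cfd had no count in any library, and Pparg, Adipoq, Plin1 and Cidec had 2 counts or fewer in any library. Lipe rose to 7.89 ± 0.619 CPM in FR, against 4.58 ± 0.190 CPM in WT, and Fabp4 to 1.31 ± 0.340 CPM in FR, against 0.738 ± 0.279 CPM in WT (SD, n = 3 each). For Fabp4 the groups overlapped (edgeR adjusted p = 0.033), with 23 to 32 counts in FR libraries and 13 to 27 in WT libraries. The list summed to between 8.78 and 9.56 CPM in FR and between 4.88 and 5.74 CPM in WT. Of 6 macrophage markers, Adgre1, Ptprc and C1qa had 5 counts or fewer in any library. Csf1r rose to 7.14 ± 0.658 CPM in FR, against 0.587 ± 0.200 CPM in WT (12.1-fold), and Cd68 to 2.26 ± 0.121 CPM in FR, against 0.467 ± 0.237 CPM in WT (4.76-fold, SD, n = 3 each). These factors rest on few counts in WT libraries, 12 to 21 for Csf1r and 5 to 16 for Cd68. Lyz2 fell to 1.54 ± 0.196 CPM in FR, against 6.15 ± 0.535 CPM in WT (SD, n = 3 each). With these opposite changes the list summed to between 10.3 and 12.2 CPM in FR and between 6.56 and 7.99 CPM in WT. The part of these markers in the results on the 10 genes was not tested.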

How the data were processed

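The table that the authors deposited lists gene lengths, pathway terms and, for every library, expected counts without scaling for depth. Per the submitters' processing notes, fastp, HISAT, RSEM and GRCm39 were used; versions, settings and the annotation are not given in the sources used here. RSEM estimates how reads that match several genes are shared, and strand is not stated, so reads of overlapping genes cannot be told apart. Per the labels' protocols, poly(A) RNA was sequenced as paired-end reads.

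Expected counts were rounded and filtered with filterByExpr, which left 14889 genes. FR was compared with WT using TMM factors and the robust quasi-likelihood test of edgeR 4.0.16 (R 4.3.3), with an adjusted p threshold of 0.05. Steps were tested on simulated data in which few genes were changed, as many up as down. This does not test the scaling where 70.1% of genes are called, as here. DESeq2 1.42.0 and limma 3.58.1 (voom) were alternatives, as were 2 other scalings, 2 other filters, a fit that is not robust, leaving out each library or the 10 most abundant genes, and the replicate number as a block. Assembled loci left out, thinning and added look-alike counts were chosen after seeing the data. The 10 genes and all lists were chosen with earlier results of these data known. The text names, of each list, the 3 genes of smallest adjusted p, plus the first of the other direction where these have 1 sign, and Srebf1, Srebf2 and the cell type markers whatever their values. Elovl1, Elovl4 and Scd4 are named beyond this rule, after their values were seen. Stated floors cover counting error only.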

Additional observations from a re-analysis of the deposited data

How the results depend on the processing

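All 10 genes were lower in FR, and past the threshold, under each of the 18 alternatives run, with an adjusted p of at most 7.25e-06 (Elovl5). The alternative with look-alike counts added counts only to Acaca and Scd1, so it does not test the other genes. The look-alikes of Acss2 (Acss2os) and Elovl6 (Gm11295) had no counts. Of the 31-base words of Acss2, 7.58% occur in other genes, mainly Gss, Acss2os and Ggt7, and counts of Gss and Ggt7 were not added. For Elovl6 the part was 6.52%, mainly in Gm11295. Their log2 fold changes stayed between −1.64 and −1.58 for Elovl6, between −1.56 and −1.50 for Scd1, between −1.51 and −1.42 for Acss2 and between −0.33 and −0.26 for Elovl5. Over the whole table, 9518 of 14889 tested genes (63.9%) were called with DESeq2 and 10931 of 27286 (40.1%) with no filter. With a mean of at least 1 CPM required, 74.0% of 13131 tested genes were called. Same-numbered libraries did not deviate together (correlations of −0.017, −0.0039 and −0.028). Differently numbered libraries had correlations from −0.020 to 0.037. No pairing was seen, but these values cannot show whether same-numbered libraries were prepared together. With the replicate number as a block 10292 genes were called, 5070 higher and 5222 lower, and the 10 genes were all called lower. The summed level in FR was between 0.62 and 0.636 times that in WT. Without division by length, the share of Scd1 differed by −5.11 percentage points. Leaving out 1 library at a time moved 6 list medians by more than the spread between libraries. These ranged from −0.43 to −0.40 for acyl-CoA synthetases, 0.067 to 0.13 for fatty acid oxidation, −0.11 to −0.059 for glycerolipid assembly, 0.26 to 0.43 for mitochondrial fatty acid synthesis, −1.45 to −1.43 for osteoblast markers (−1.43 with all libraries) and 1.89 to 2.48 for macrophage markers. The median of precursor and NADPH supply ranged from −0.18 to −0.092, and the difference in the share of Fads1 from −0.72 to −0.22 percentage points. The cause was not tested. Groups of 3 libraries are too small for a check of single outlying libraries, and an exact test of 3 against 3 cannot go below 0.1.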
